A study of Mus musculus with 80 samples.

Results

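Purified nuclei of liver macrophages were compared with unpurified liver nuclei of the same mouse line. The comparison used 40 of the 80 libraries of the series: all 32 libraries whose titles mark them as purified macrophage nuclei, and all 8 pools of whole liver that belong to the macrophage line. The remaining 40 libraries, 32 of purified hepatocyte nuclei and 8 pools of that line, entered only where a difference from hepatocyte purification was tested. All mice were female and carried a nuclear tag for INTACT, a method that captures nuclei of 1 cell type on beads by a tag on their envelope, so that the tissue need not be digested into single cells. The MAC-INTACT line carries the tag in macrophages, and tagged nuclei and pools of that line share it. The HEP-INTACT line carries it in hepatocytes. The fast began at zeitgeber time (ZT) 12, the start of the dark phase. Livers were taken after 3, 8, 16 and 24 h, which is ZT 15, 20, 4 and 12. Fed mice had free access to food and were sampled at each of these times. Each of the 8 combinations of feeding and time held 4 libraries of purified nuclei and 1 pool of nuclei from 4 mice. The labels used here give no promoter or Cre line that drives the tag, no strain, no age, and no number of mice per purified library, so the p-values measure the spread between libraries.

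Kupffer cells are the resident macrophages of the liver. They line the sinusoids, where they bind and engulf particles, bacteria and aged red cells from the portal blood, and they recycle the iron and the lipid these carry. Their identity depends on lineage factors of all macrophages, such as PU.1, and on liver factors, among them the sterol sensor LXRα, and signals from sinusoidal endothelium, stellate cells and hepatocytes are known to maintain it. Whole liver nuclei come mostly from hepatocytes. Total nuclear RNA includes unspliced transcripts, so a level reported here reflects nuclear RNA over the whole gene body and not cytoplasmic messenger RNA.

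The count table held 20105 genes, of which 13679 passed a filter on low counts. Totals ran from 14968505 to 44694933 counts in purified macrophage libraries and from 16523636 to 35514304 in the 8 pools. Levels are given in CPM, counts scaled to a common library total after adjustment by the trimmed mean of M-values (TMM). Differences are log2 of purified macrophage nuclei over unpurified liver within conditions, 32 against 8 libraries, with their standard errors (SE). P-values come from the quasi-likelihood test of edgeR with Benjamini-Hochberg adjustment over all 13679 genes. A gene counted as higher or lower at an adjusted p under 0.05, and as enriched or depleted where it also differed by more than 2-fold. In bulk samples, fewer cells of a type and less RNA per cell cannot be told apart. Coordinates are those of mouse build mm10.

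The 3 genes chosen to check the macrophage label were far higher in purified nuclei than in the pools. Clec4f, a galactose-binding lectin found on Kupffer cells (chr6:83644542-83656116), had a lowest, median and highest level of 566, 1025 and 1536 CPM over the 32 purified libraries and of 34.8, 52.5 and 63.2 CPM over the 8 pools. Every purified library lay above every pool. The difference was 4.37 ± 0.14 (SE, edgeR adjusted p = 3.71e-25), and it was between 4.13 and 4.69 in each of the 8 conditions. Vsig4, a receptor for complement fragments (chrX:96247203-96293438), spanned 624 to 1906 CPM with a median of 944 in purified nuclei and 36.9 to 59.2 CPM with a median of 45.1 in the pools. Its difference was 4.40 ± 0.16 (edgeR adjusted p = 1.12e-23). Csf1r, the receptor through which the growth factor CSF1 keeps macrophages alive (chr18:61105572-61131139), spanned 402 to 1082 CPM with a median of 736, against 29.2 to 44.7 CPM with a median of 38.0 in the pools. Its difference was 4.31 ± 0.12 (edgeR adjusted p = 3.83e-26), and here too the groups did not overlap. These markers go with the label of the purified libraries. Alb, the albumin gene of hepatocytes, was lower in purified nuclei by only 1.22 ± 0.10 on the log2 scale (edgeR adjusted p = 5.29e-13), and it was never near 0. It spanned 712 to 4070 CPM with a median of 1784 in purified nuclei and 2187 to 6786 CPM with a median of 4093 in the pools, so the groups overlapped, although within each condition the purified libraries lay below their pool.

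**Figure D1:**
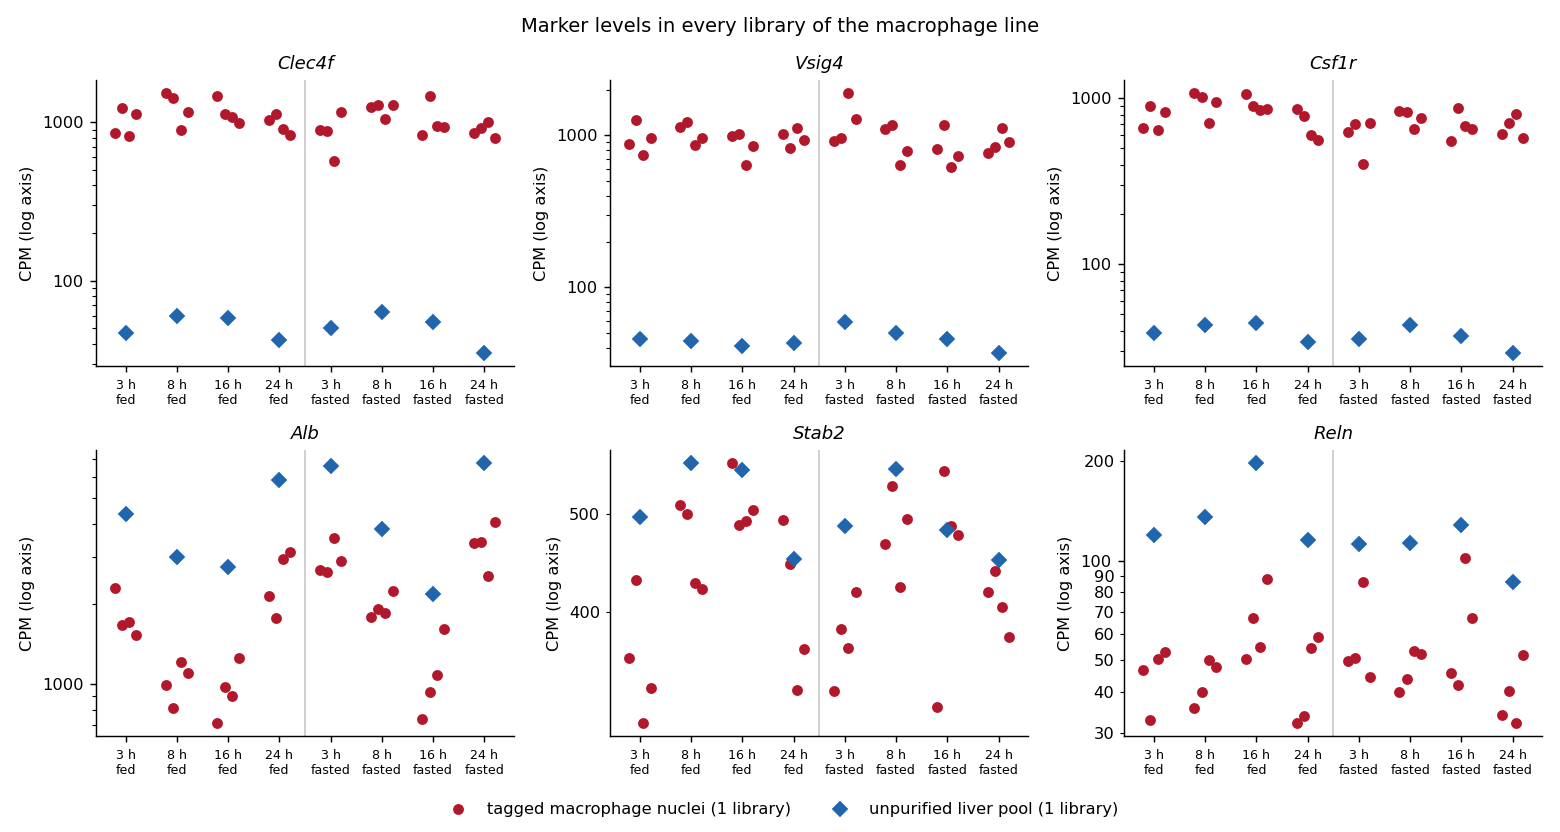
Levels in CPM, on a log axis, of Clec4f, Vsig4, Csf1r, Alb, Stab2 and Reln in each of the 8 combinations of feeding and time. Red points are the 32 purified macrophage libraries and blue diamonds the 8 whole-liver pools. Purified libraries lay above the pools for the 3 macrophage genes in every condition, while the hepatocyte gene Alb was lower by a log2 difference of 1.22.

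Of the 13679 genes, 5095 were higher in purified macrophage nuclei (37.2%), 5477 were lower (40%) and 3107 passed in neither direction. Enriched genes numbered 2337 (17.1%) and depleted genes 2096 (15.3%). The upper side reached much farther: 1311 genes were more than 4-fold higher, 721 more than 8-fold and 232 more than 16-fold, while 1 gene was more than 4-fold lower. All 32 purified libraries lay above all 8 pools for 1827 genes (13.4%) and below all pools for 427 (3.12%). Among the enriched genes 1539 showed no overlap (65.9%), and among the depleted genes 327 (15.6%). Enriched genes took 17.9 to 31.3% of a purified library's counts (median 23.4%) and 4.44 to 5.19% of a pool's (median 4.93%). Depleted genes took 10.8 to 23.7% (median 16.7%) and 34.5 to 37.4% (median 35.5%). Enriched genes were of ordinary length, with a median of 24206 bases against 24258 over all genes tested.

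Genes were described in 43 lists, 31 of macrophage and metabolic programmes and 12 of other liver cell types. Some genes stand in several lists. Genes below the filter on low counts are left out of each list's counts of higher and lower genes. A gene could pass that filter by its level in purified nuclei alone. This can raise the share that is higher in lists of low level, and by how much was not tested. The median difference over all genes tested was -0.03, with 37.2% higher and 40% lower, and each list is to be read beside these values. The lists differed widely, from a median of 4.14 for immunoglobulin-like receptors to -1.50 for sinusoidal endothelial markers.

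**Figure D2:**
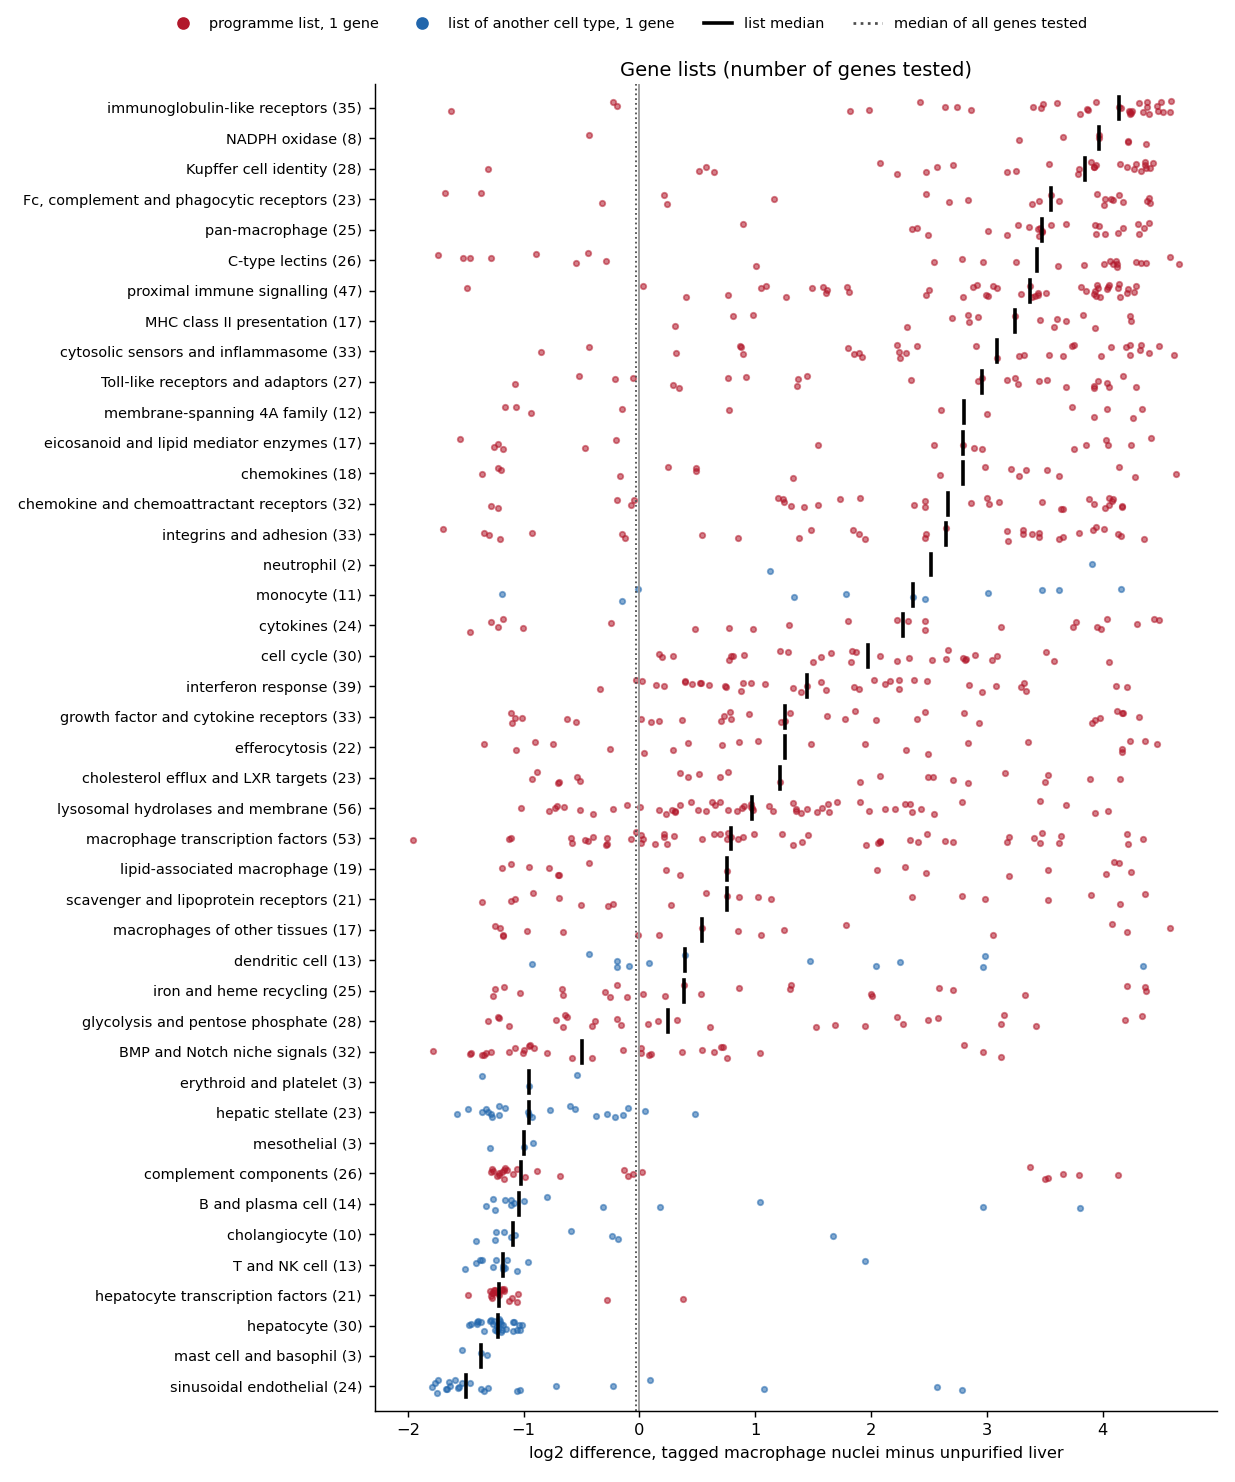
Log2 difference of purified macrophage nuclei over whole liver for the genes of 43 lists, 1 row per list and 1 point per gene, with a bar at the list's median. Programme lists are red, lists of other liver cell types are blue, and the dotted line is the median of all genes tested (-0.03). The Kupffer identity and immunoglobulin-like lists sit near 4 (medians 3.85 and 4.14), other receptor lists lie between 0.75 and 3.55, and the hepatocyte, endothelial and stellate lists sit below 0.

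The Kupffer cell identity list was higher nearly throughout, with 27 of 28 genes higher and a median of 3.85. Folr2, a folate receptor, was at 27.9 CPM in purified nuclei and 1.28 in the pools, a difference of 4.44 ± 0.20. Timd4, which binds phosphatidylserine on dying cells, was at 450 and 21.7 CPM (4.37 ± 0.16). Cd163, which takes up haemoglobin bound to haptoglobin, was at 795 and 37.4 CPM (4.36 ± 0.17). For these 3 genes the purified libraries and the pools did not overlap. The exception was Hal, the histidine-degrading enzyme, which is also strongly expressed in hepatocytes and was lower at -1.31 ± 0.15. All 25 pan-macrophage genes were higher, with a median of 3.48. Adgre1, which encodes the F4/80 antigen, was at 1204 ± 243 CPM in purified nuclei (SD, n = 32) and 58.8 ± 7.92 CPM in the pools (SD, n = 8), a difference of 4.35 ± 0.13. Tyrobp, a signalling adaptor of many myeloid receptors, differed by 4.40 ± 0.14, Aif1 by 4.30 ± 0.19 and Fcgr1, the high-affinity receptor for IgG, by 4.17 ± 0.16.

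Genes known from macrophages of other tissues were mixed. Of 17 tested, 9 were higher and 6 lower, with a median of 0.54. P2ry12, a nucleotide receptor best known from microglia, was at 95.5 CPM in purified nuclei and 5.60 in the pools (4.08 ± 0.14). Spic, a factor of red pulp macrophages, differed by 4.21 ± 0.15. Siglecf, of alveolar macrophages, differed by 4.58 ± 0.43, but at a mean of only 0.521 CPM. Sall1 (-1.25 ± 0.13), Gata6 (-1.18 ± 0.12) and Mef2c (-0.66 ± 0.09), factors tied to microglia or peritoneal macrophages, were lower than in whole liver.

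Of 53 transcription factors used or studied in macrophages, 35 were higher and 8 lower, with a median of 0.79. Spi1, which encodes PU.1, the lineage factor of myeloid cells, spanned 118 to 245 CPM with a median of 180 in purified nuclei and 6.35 to 11.6 CPM with a median of 10.2 in the pools. Purified libraries and pools did not overlap, and the difference was 4.22 ± 0.11 (edgeR adjusted p = 5.86e-27). Spic, a relative of PU.1 that is induced by heme, spanned 31.7 to 77.6 CPM against 1.47 to 3.79 (4.21 ± 0.15). Batf3 (4.35 ± 0.18), Lyl1 (3.64 ± 0.21) and Runx1 (3.62 ± 0.11) completed the highest 5. Nr1h3, which encodes LXRα and is active in hepatocytes as well, differed by less, at 2.07 ± 0.09, with 340 CPM in purified nuclei and 80.1 in the pools. Tal1, a factor of blood stem cells and erythroid cells, was lowest at -1.95 ± 0.13, and Ikzf3 (-1.11 ± 0.12), Bhlhe40 (-1.13 ± 0.17), Id2, Smad3, Zfp36, Elk3 and Stat3 were the others that were lower.

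Of 33 growth factor and cytokine receptors, 24 were higher and 6 lower, with a median of 1.25. After Csf1r the largest differences belonged to Tnfrsf11a, the receptor RANK (182 against 10.1 CPM, 4.17 ± 0.13), and to Il10ra, the ligand-binding chain of the IL-10 receptor (220 against 12.2 CPM, 4.16 ± 0.14). The receptor chains for GM-CSF, Csf2ra and Csf2rb, followed at 4.12 ± 0.20 and 3.97 ± 0.14. The lower receptors were those widely used outside macrophages: Il1r1 (-1.11 ± 0.20), Il1rap (-1.07 ± 0.12), Lifr (-1.01 ± 0.12), Il18r1, Il27ra and the shared chain Il6st (-0.55 ± 0.05).

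Receptors for binding and engulfing particles were strongly represented. Of 23 Fc, complement and phagocytic receptors, 19 were higher and 2 lower, with a median of 3.55. Siglec1, the sialic acid receptor sialoadhesin, was at 430 CPM in purified nuclei and 20.6 in the pools (4.38 ± 0.19). Trem2, a lipid-sensing receptor that signals through Tyrobp, had the same size of difference at a low level, 5.22 against 0.290 CPM (4.14 ± 0.28). Fcgr2b, the inhibitory IgG receptor that sinusoidal endothelium also expresses, was lower at -1.37 ± 0.08, as was Fcamr. Efferocytosis genes, which serve the clearance of dying cells, were higher in 16 of 22 cases and lower in 5, with a median of 1.25. The receptors Cd300lf (4.47 ± 0.17), Cd300a (4.24 ± 0.13), P2ry6 (4.17 ± 0.11) and Axl (465 against 26.0 CPM, 4.16 ± 0.12) stood at the top. The bridging ligands that link dying cells to these receptors were lower: Gas6 by a log2 difference of -0.74 ± 0.15, Pros1 by -0.26 ± 0.08 and Mfge8 by -1.07 ± 0.12.

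Scavenger and lipoprotein receptors were split, with 13 of 21 higher, 8 lower and a median of 0.75. Marco, a scavenger receptor for bacteria, spanned 26.0 to 318 CPM with a median of 54.3 in purified nuclei and 2.27 to 11.6 CPM with a median of 4.72 in the pools. Its purified libraries were widely spread, but the groups did not overlap, and it differed by 3.90 ± 0.31. Cd5l, a secreted inhibitor of apoptosis that is a target of LXR, spanned 221 to 1510 CPM against 13.7 to 55.5 (4.15 ± 0.16). Apoe (-0.70 ± 0.12), Vldlr (-1.11 ± 0.16), Scara3, Scara5, Colec12, Scarf1 and the endothelial Stab2 were lower.

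C-type lectins bind sugars on microbes and host glycoproteins. Of 35 listed, 26 were tested, and of these 18 were higher and 8 lower, with a median of 3.43. Cd207, known from Langerhans cells, was at 18.8 CPM in purified nuclei and 0.929 in the pools (4.33 ± 0.21), and its gene lies close to Clec4f (chr6:83671207-83677857). Clec4a2 was at 36.9 and 1.85 CPM (4.28 ± 0.18). Cd209f and Cd209g differed by 4.58 ± 0.34 and 4.66 ± 0.38 at means of 5.30 and 2.15 CPM. Lower members included Clec4g (-1.74 ± 0.12), known from sinusoidal endothelium, and the soluble collectins Colec10 (-1.46 ± 0.14) and Colec11 (-1.28 ± 0.11).

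Immunoglobulin-like receptors, many of them pairs of activating and inhibitory forms, had the highest median of all lists, 4.14. Of 35 tested, 32 were higher and 1 was lower. Pilrb1 was at 111 CPM against 4.79 (4.52 ± 0.18), Pilrb2 at 71.3 against 2.91 (4.59 ± 0.18) and the inhibitory receptor gene Lilrb4a at 391 against 17.4 (4.50 ± 0.15). Purified libraries and pools did not overlap for these 3. Close copies such as Pilrb1 and Pilrb2, or members of the Lilr, Cd300, Clec4a and Naip families, may share reads, so their separate values are uncertain. Cd300lg, known from endothelium, was the lower gene at -1.63 ± 0.09.

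Toll-like receptors and their adaptors were higher in 23 of 27 cases and lower in 3, with a median of 2.95. The sensors of single-stranded RNA led: Tlr8 was at 90.7 CPM against 4.56 (4.29 ± 0.17) and Tlr7 at 123 against 7.30 (4.04 ± 0.16). The adaptor gene Ticam2 (4.18 ± 0.17) and the paired surface proteins Ly86 (4.06 ± 0.14) and Cd180 (3.96 ± 0.15) were close behind. Tlr5, the flagellin receptor, was lower (18.4 against 38.4 CPM, -1.07 ± 0.17), as were the adaptors Ticam1 (-0.53 ± 0.12) and Tirap (-0.21 ± 0.07). Cytosolic sensors and inflammasome genes were higher in 31 of 33 cases and lower in 2, with a median of 3.09. Mefv, which encodes pyrin (4.40 ± 0.20), Nlrp1b (228 against 11.3 CPM, 4.32 ± 0.14), Naip6 (4.33 ± 0.19) and Nlrp3 (72.3 against 3.86 CPM, 4.23 ± 0.11) were among them. The lower genes were Mavs, the adaptor of RNA helicase sensors that most cells use (-0.44 ± 0.09), and Nlrc3 (-0.85 ± 0.12).

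The kinases and adaptors that carry signals from these receptors were nearly all higher. Of 47 tested, 45 were higher and 1 lower, with a median of 3.37. Card9, the adaptor below fungal lectins, was at 21.1 CPM against 1.07 (4.27 ± 0.23). Themis2 differed by 4.21 ± 0.16 and Was, the actin regulator mutated in Wiskott-Aldrich syndrome, by 4.15 ± 0.13. Rasgrp3 was the lower gene (-1.49 ± 0.08). Of 8 NADPH oxidase genes, which serve the oxidative burst and the phagosome, 7 were higher and 1 lower, with a median of 3.97. They included the catalytic chain Cybb (182 against 11.8 CPM, 3.97 ± 0.14) and its cytosolic partners Ncf1 (4.22 ± 0.15) and Ncf4 (3.96 ± 0.11). Hvcn1, a proton channel, was lower at -0.44 ± 0.12.

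Cytokine genes were measured mostly at low levels. Of 34 listed, 24 were tested, and of these 18 were higher and 5 lower, with a median of 2.27. Il1b was the highest member by difference, at 55.3 ± 44.3 CPM in purified nuclei (SD, n = 32) and 2.49 ± 1.07 in the pools (SD, n = 8), a difference of 4.48 ± 0.48. The SD over purified libraries was close to the mean, and the SE was large beside that of the receptors. Il27 (14.9 against 0.630 CPM), Il6 (2.13 against 0.107 CPM), Il10 (2.54 against 0.153 CPM) and Ebi3 (4.64 against 0.291 CPM) differed by 3.98 to 4.45. Growth factors of other liver cells were lower: Csf1 by -1.01 ± 0.12, Vegfa by -1.22 ± 0.13, Bmp2 by -1.46 ± 0.09, Bmp6 by -1.28 ± 0.08 and Gdf15 by -1.18 ± 0.25.

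Of 25 chemokine genes listed, 18 were tested. Of these 12 were higher and 3 lower, with a median of 2.79. Ccl8, Ccl12, Ccl17, Ccl22, Pf4, Ppbp and Xcl1 lay below the filter. Ccl6 was at 28.7 CPM against 1.57 (4.14 ± 0.20), and Ccl24, an attractant of eosinophils, at 5.91 against 0.299 (4.27 ± 0.27). Ccl3 and Ccl2 differed by 4.63 ± 0.49 and 3.52 ± 0.43 at means of 1.46 and 1.01 CPM. Cxcl12, the stromal attractant for CXCR4, was lower at 109 against 280 CPM (-1.36 ± 0.13), as were Cxcl1 and Cxcl11. Of 32 chemokine and chemoattractant receptors, 27 were higher and 2 lower, with a median of 2.67. Cmklr1, the chemerin receptor, was at 325 against 18.1 CPM (4.16 ± 0.14). C3ar1, the receptor of the complement fragment C3a, was at 26.5 against 1.55 CPM (4.08 ± 0.16). Fpr2, for formyl peptides, differed by 4.05 ± 0.21. S1pr1 (-1.28 ± 0.14) and Cxcr5 (-1.22 ± 0.29) were lower.

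Complement was divided by gene, and its list had a negative median of -1.02, with 6 of 26 genes higher and 16 lower. The higher genes were C1qa (3.53 ± 0.11), C1qb (136 against 7.69 CPM, 4.13 ± 0.17) and C1qc (3.65 ± 0.16), the 3 chains of the recognition molecule of the classical pathway, with Fcna, a ficolin (3.50 ± 0.21), Cfp, which encodes properdin (3.37 ± 0.11), and C6 (3.80 ± 0.17). C6 belongs to the membrane attack complex and was at 476 to 1923 CPM with a median of 785 in purified nuclei and 42.7 to 80.3 CPM in the pools. The lower genes mostly encode plasma proteins made by hepatocytes, among them C3, which was at 673 against 1395 CPM (-1.06 ± 0.15).

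Genes of antigen presentation by class II molecules were higher in 16 of 17 cases, with a median of 3.24. The co-stimulatory ligands Cd80 (4.24 ± 0.13) and Cd86 (368 against 19.5 CPM, 4.23 ± 0.13) led, followed by Ctss, the protease that trims the invariant chain (3.93 ± 0.14), and March1, a ligase that controls class II turnover (675 against 46.1 CPM, 3.83 ± 0.16). H2-Aa, a class II chain, was at 27.1 against 3.75 CPM (2.85 ± 0.17). H2-Eb2, at 0.291 against 0.253 CPM, was the member that did not pass. Lysosomal genes were higher in 43 of 56 cases and lower in 8, with a smaller median of 0.97. Lgmn, the asparagine endopeptidase, was at 596 against 46.5 CPM (3.69 ± 0.11), and Ctsc, the protease that activates granule enzymes, at 614 against 93.4 CPM (2.78 ± 0.13). Slc15a3, a peptide transporter of the endolysosome (4.05 ± 0.18), and Laptm5 (3.46 ± 0.13) were also among the highest. Lamp2 (-0.40 ± 0.07), Npc1 (-0.51 ± 0.07) and Ctsl (-0.78 ± 0.09) were lower.

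Iron and heme genes went both ways. Of 25 tested, 14 were higher and 9 lower, with a median of 0.38. Slc40a1, the iron exporter ferroportin, spanned 580 to 1368 CPM with a median of 874 in purified nuclei and 108 to 162 CPM with a median of 136 in the pools, with no overlap (2.70 ± 0.12). Hmox1, the heme oxygenase that frees iron from heme, spanned 29.97 to 93.1 CPM against 4.58 to 10.6 (3.33 ± 0.14). Slc11a1, the metal transporter of the phagosome, differed by 4.37 ± 0.13. The lower genes included Hamp, which encodes hepcidin, the hormone that closes ferroportin (25.2 to 150 CPM against 111 to 223, -1.26 ± 0.14), Tfr2 (-1.03 ± 0.12) and Cp, which encodes ceruloplasmin (-1.17 ± 0.18). The other lower genes were the metal transporter Slc11a2 (-0.19 ± 0.07), the reductases Steap3 (-0.67 ± 0.11) and Steap4 (-1.25 ± 0.15), the iron regulatory proteins Aco1 (-0.30 ± 0.05) and Ireb2 (-0.26 ± 0.05), and Hebp1 (-0.66 ± 0.07). For Hamp the purified libraries and the pools overlapped.

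Cholesterol efflux genes and LXR targets were higher in 17 of 23 cases and lower in 6, with a median of 1.21. Soat1, which esterifies cholesterol for storage, was at 155 against 10.4 CPM (3.89 ± 0.11). Lpl, lipoprotein lipase (3.53 ± 0.29), Arl4c (3.50 ± 0.24) and the efflux pump Abcg1 (228 against 25.5 CPM, 3.15 ± 0.16) were also high. Apoe, Apoc1 (-0.70 ± 0.09), Srebf1 (-0.54 ± 0.19), Lpcat3 (-0.93 ± 0.09), Acsl3 (-0.89 ± 0.11) and Npc1 were lower. A list of genes used to mark lipid-associated macrophages was mixed, with 11 of 19 higher, 7 lower and a median of 0.75. Lgals3, which encodes galectin-3 (51.4 against 2.72 CPM, 4.24 ± 0.16), Pla2g7 (4.03 ± 0.20) and the elastase gene Mmp12 (1.91 against 0.110 CPM, 4.09 ± 0.28) were higher. Spp1 (-1.11 ± 0.16), Cd9 (-0.71 ± 0.13), Fabp4 (-1.19 ± 0.20) and Fabp5 (-0.96 ± 0.29) were lower.

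Genes for lipid mediators were higher in 11 of 17 cases and lower in 6, with a median of 2.79. They covered release of arachidonic acid by Pla2g4a (319 against 16.9 CPM, 4.24 ± 0.13), thromboxane synthesis by Tbxas1 (579 against 35.3 CPM, 4.04 ± 0.13), prostaglandin D synthesis by Hpgds (81.4 against 3.79 CPM, 4.42 ± 0.17) and leukotriene synthesis by way of Alox5ap (3.85 ± 0.14). Ephx2 (-1.23 ± 0.15) and Mgst1 (-1.26 ± 0.11), enzymes abundant in hepatocytes, were lower. The other lower members were Ptgds, Lta4h, Mgst2 and Alox12, so the enzymes of the routes named were not all higher. In glycolysis and the pentose phosphate pathway, 14 of 28 genes were higher and 10 lower, with a median of 0.24. The hexokinases Hk3 (204 against 9.80 CPM, 4.34 ± 0.16) and Hk2 (95.5 against 5.17 CPM, 4.19 ± 0.14) were higher. G6pdx, the entry enzyme of the pentose phosphate pathway, was higher (3.12 ± 0.13), and so were Pfkfb4 (3.15 ± 0.10) and the transporter Slc2a6 (3.42 ± 0.25). The lower genes included the liver forms Pklr (31.5 against 71.6 CPM, -1.12 ± 0.18) and Slc2a2 (-1.31 ± 0.12), and also Pfkm (-0.63 ± 0.07), Gapdh (-0.72 ± 0.15), Pgk1 (-0.66 ± 0.09), Ldha (-0.64 ± 0.11), Tpi1 (-0.38 ± 0.11) and Slc2a1 (-0.41 ± 0.08), which many tissues use. Hk3 overlaps Unc5a in the genome, and reads of overlapping genes cannot be told apart where strand was not used.

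Adhesion genes were higher in 26 of 33 cases and lower in 5, with a median of 2.65. Adgre4 was at 443 against 25.4 CPM (4.13 ± 0.13), Itgal, the leukocyte integrin chain of LFA, at 368 against 22.6 CPM (4.01 ± 0.13), and Emilin2 at 55.1 against 3.04 CPM (4.16 ± 0.12). Adgrl4 (-1.70 ± 0.11), Itga1 (-1.30 ± 0.10), Itgb3 (-1.34 ± 0.14), Itgb8 and Jam3, most of them known from vessels or stroma, were lower. Among 12 membrane-spanning genes of the Ms4a family, 8 were higher and 3 lower, with a median of 2.80. Ms4a6d (4.34 ± 0.17), Ms4a7 (4.26 ± 0.20) and Ms4a6c (4.04 ± 0.17) were higher, and Ms4a1, the B cell antigen CD20, was lower (-1.16 ± 0.24).

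Interferon-response genes were higher in 35 of 39 cases and lower in 1, with a median of 1.44. Oas2, an enzyme that senses double-stranded RNA, spanned 76.6 to 543 CPM with a median of 275 in purified nuclei and 7.25 to 19.1 CPM with a median of 15.6 in the pools (4.21 ± 0.18). Its relatives Oas3 (4.11 ± 0.23) and Oas1a (3.34 ± 0.16), with Ifi204 (3.32 ± 0.17) and Mx1 (3.29 ± 0.21), made up the highest 5. Cell-cycle genes were higher in 27 of 30 cases, with a median of 1.97. Mki67, which marks cycling cells, spanned 9.19 to 155 CPM with a median of 36.7 in purified nuclei and 0.655 to 5.07 CPM with a median of 3.64 in the pools. No purified library was as low as the highest pool, and the difference was 3.51 ± 0.28 (edgeR adjusted p = 1.81e-13). Kif23 (4.05 ± 0.22) and Aurkb (3.58 ± 0.36) act in the last step of division, and Top2a (3.04 ± 0.28) and Cenpe (3.09 ± 0.25) in mitosis. For Mki67 the purified libraries were widely spread among themselves.

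A list of niche signals, mostly of the BMP, TGF-β and Notch pathways, held ligands of neighbouring cells together with receptors, mediators and targets. Of its 32 genes, 10 were higher and 18 lower, with a median of -0.50. The ligands Bmp2, Bmp6, Wnt2 (-1.78 ± 0.19) and Csf1 were lower. Receptors and mediators went both ways. The receptor Acvrl1 (23.4 against 3.35 CPM, 2.80 ± 0.13), Smad1 (0.72 ± 0.06), Smad6 (0.71 ± 0.08), Smad7 (0.54 ± 0.12), Notch2 (0.37 ± 0.05), Hes1 (0.76 ± 0.16) and Id3 (0.64 ± 0.20) were higher. So were Tgfb1 (75.7 against 8.69 CPM, 3.12 ± 0.13), Hey1 and the ligand gene Jag2, the last at a mean of 0.653 CPM. Bmpr1a (-0.41 ± 0.05), Eng (-1.35 ± 0.07), Smad5 (-0.14 ± 0.04), Smad9 (-0.80 ± 0.15), Heyl (-0.95 ± 0.23) and Id2 (-0.58 ± 0.15) were lower. Notch1, Bmpr2 and Id1 did not pass, at differences of 0.02, 0.10 and 0.01.

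Hepatocyte markers were lower but far from gone. All 30 were lower, with a median of -1.22, against 40% of all genes. They included Ttr (-1.45 ± 0.16), Tdo2 (-1.41 ± 0.18), Serpina1b (-1.40 ± 0.12), Cyp2f2 (-1.39 ± 0.10) and Ass1 (-1.47 ± 0.31). The summed level of the 30 markers had a lowest, median and highest value of 6883, 12780 and 29079 CPM in purified libraries and of 24597, 28334 and 36331 CPM in the pools. As the median over the 30 markers, a purified library held 0.254 to 0.609 of the level in the pool of its condition, with a median of 0.414. Of 21 hepatocyte transcription factors, 19 were lower and 1 was higher, with a median of -1.21. Foxa1 (-1.48 ± 0.14), Onecut2 (-1.29 ± 0.10) and Foxa2 (-1.27 ± 0.13) were lower, and Esrra, which is used in many tissues, was higher at 0.38 ± 0.08. Levels were not corrected for this hepatocyte RNA, and its part in the other differences was not tested.

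**Figure D3:**
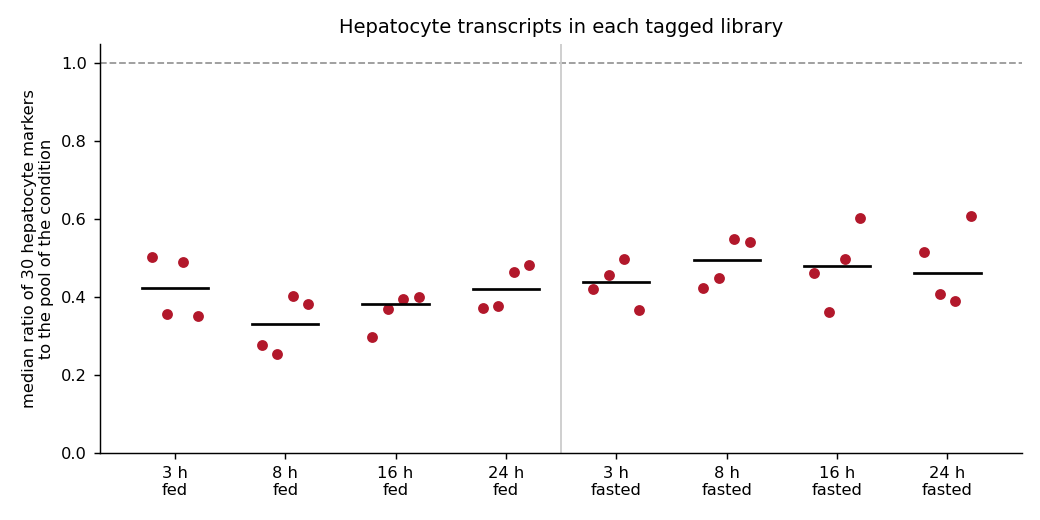
Median over 30 hepatocyte markers of the level in a purified macrophage library divided by that in the pool of the same condition, 1 point per library, by time and feeding. A ratio of 1 would mean as much as in whole liver. The 32 libraries lay between 0.254 and 0.609, with medians of 0.381 in fed and 0.460 in fasted mice.

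Sinusoidal endothelial markers were lower in 20 of 24 cases and higher in 3, with a median of -1.50. Egfl7 (10.1 against 34.3 CPM, -1.79 ± 0.15), Gpr182 (-1.77 ± 0.13) and Oit3 (-1.75 ± 0.09) were lowest. Those that were higher were the mannose receptor gene Mrc1 (550 to 2137 CPM with a median of 1019 against 120 to 187 CPM, 2.79 ± 0.15), Cdh5 (93.7 to 287 CPM against 27.5 to 35.3, 2.57 ± 0.12) and Pecam1 (1.07 ± 0.15), and Mrc1 and Cdh5 are known from Kupffer cells as well. Stab2 was an exception on the lower side: it spanned 310 to 563 CPM in purified nuclei and 450 to 563 CPM in the pools, the ranges overlapped, and the difference of -0.23 ± 0.07 was small. With Mrc1, Cdh5 and Stab2 in it, the summed level of the list was 1505 to 3497 CPM in purified libraries and 1537 to 2070 CPM in the pools.

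Stellate cell markers were lower in 17 of 23 cases and higher in 1, with a median of -0.95. Reln spanned 32.04 to 102 CPM in purified nuclei and 86.1 to 198 CPM in the pools (-1.31 ± 0.12), and Lrat, which stores vitamin A as esters, differed by -1.48 ± 0.21. Hgf was the higher gene (0.48 ± 0.11). The summed stellate level was 132 to 288 CPM in purified libraries and 216 to 405 CPM in the pools. Cholangiocyte markers were lower in 7 of 10 cases, among them Sox9 (-1.42 ± 0.24), and higher in 1, Krt7. T and NK cell markers were lower in 12 of 13 cases, with a median of -1.18. Their summed level was 21.8 to 48.4 CPM against 56.2 to 78.5, and the 1 higher gene was Cd4 (3.10 against 0.837 CPM).

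Markers of other leukocytes went both ways. Of 14 B cell markers, 9 were lower, with a median of -1.04, and Pax5 (-1.32 ± 0.17), Cd79a (-1.26 ± 0.29) and Pou2af1 (-1.25 ± 0.20) were among them. Bank1, an adaptor of B cell receptor signalling, was at 1093 against 76.0 CPM (3.80 ± 0.15), and Cd22 at 21.9 against 2.90 CPM (2.96 ± 0.16). Together with Cd79b at 0.978 CPM, they were the 3 higher members. Of 14 neutrophil markers, 12 lay below the filter, with no mean above 0.134 CPM in purified nuclei, and those tested were Csf3r (49.7 to 129 CPM against 4.28 to 9.44, 3.91 ± 0.15) and Mmp9 (0.868 against 0.343 CPM). Of 15 monocyte markers, 4 lay below the filter, with no mean above 0.227 CPM in purified nuclei: Ly6c2, Ly6c1, Chil3 and S100a4. The monocyte markers tested were higher in 8 of 11 cases and lower in 1, with a median of 2.36. Treml4 (48.1 against 2.67 CPM) and Itgam (26.9 against 2.18 CPM) were the highest, and Fn1, which hepatocytes also secrete, was lower at 284 to 850 against 706 to 1864 CPM.

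Dendritic cell markers were higher in 7 of 13 cases and lower in 1, with a median of 0.40. Clec9a, a lectin of cross-presenting dendritic cells, was at 118 to 306 CPM with a median of 170 in purified nuclei and at 18.1 to 34.2 CPM in the pools, with no overlap (2.97 ± 0.19). Batf3, Irf4 (2.98 ± 0.20), Xcr1 (2.25 ± 0.33) and Flt3 (2.04 ± 0.21) were also higher, the last 2 at means of 1.15 and 5.68 CPM. Zbtb46 was lower (-0.93 ± 0.06). The summed level of the dendritic list was 179 to 389 CPM against 69.8 to 84.4, and its part in the macrophage values was not tested. Of the lists for red cells and platelets, mast cells, and mesothelium, 3 genes each passed the filter, and all 9 were lower. Hba-a1, Hbb-bs, Mcpt4 and Fcer1a were at 0 in all 32 purified libraries and in all 8 pools.

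The largest differences among genes with at least 1 CPM and no overlap with the pools included genes little known from macrophages beside typical ones. Shcbp1l was at 2.08 ± 0.904 CPM in purified nuclei and 0.0760 ± 0.105 in the pools (SD), a difference of 4.73 ± 0.37. Mybpc1, which encodes a myosin-binding protein of skeletal muscle (chr10:88518279-88605152), was at 6.48 ± 5.19 against 0.252 ± 0.219 CPM (4.69 ± 0.33). Dnajb13, a chaperone gene of cilia (chr7:100503020-100514815), was at 11.2 ± 2.96 against 0.436 ± 0.139 CPM (4.65 ± 0.18). These levels are low beside those of the identity genes. The neuronal nitric oxide synthase gene Nos1 (4.58 ± 0.35, at 1.62 CPM), the channel gene Kcnj9 (4.58 ± 0.25, at 10.5 CPM) and Chp2 (4.55 ± 0.18, at 20.8 CPM) were of the same kind. The others of the 20 largest were Lrrc25, Pilrb1, Pilrb2, Lilrb4a, Cd300lb, Cd300lf, Naip7, Il1b, Il27, Rgs1, Adamdec1, Wfdc18, Bend6 and Irg1, which makes the antimicrobial metabolite itaconate (4.56 ± 0.47). Naip7 overlaps Naip6 and Cd300lf overlaps Rab37.

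Levels can be compared between genes only per length. By CPM per kilobase of listed gene length, Clec4f was the highest gene among those more than 4-fold higher, at 91.2 in purified nuclei and 4.43 in the pools. Lilrb4a followed at 68.5, then Dmpk, a kinase gene better known from muscle, at 56.9, Slc40a1 at 51.2, Sat1, which breaks down polyamines, at 47.0, the arrestin gene Arrb2 at 43.1 and Cd5l at 40.2. Lilr4b, Nr1h3, Cd163, Csf1r and Rasgef1b lay between 27.9 and 35.1. Gene length includes introns, so these values rank nuclear RNA per base of gene.

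The lowest differences, among genes of at least 5 CPM in the pools, belonged to genes of sinusoidal endothelium and to others of low level. Ppfia2 was at 10.3 ± 5.02 CPM in purified nuclei and 35.1 ± 7.23 in the pools (-1.80 ± 0.15), Egfl7 was as given above, and Col13a1 was at 16.0 ± 6.33 against 54.0 ± 13.8 CPM (-1.78 ± 0.13). Wnt2, Slc26a10, Sh3tc2, Oit3, Clec4g and Tinagl1 followed, down to -1.72 ± 0.14 for Tinagl1. Those named were also lower in purified hepatocyte nuclei than in their pools, by -2.29 to -2.72.

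Enriched genes often lay side by side. Of the 2337, 46.5% had an enriched gene as a direct neighbour among the tested genes, against 26.9% of the other genes. There were 129 runs of 3 or more neighbouring enriched genes, with 500 genes in all. The longest held 11 genes at chr1:173420604-174031755, among them Aim2, Mnda and Ifi204, sensors of DNA and relatives induced by interferon, with a median difference of 3.32. A run of 9 genes at chr6:122921848-124330527 held the Clec4a and Clec4b lectins, Clec4d, Clec4n and Cd163, with a median of 4.11. Another of 9 at chr7:104218795-104507849 held Trim genes such as Trim5 and Trim30a, with a lower median of 1.46. The Cd300 cluster at chr11:114890041-115133992 (8 genes, median 4.28), the Slfn cluster at chr11:82952102-83215154 (7 genes, median 3.03) and the Trem cluster at chr17:48151896-48409820 (7 genes, median 4.14) were next. Many of these neighbours are close copies that may share reads, and the part of this in the runs was not tested.

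Promoter sequences were searched for motifs of macrophage and hepatocyte factors. RefSeq promoters (build GRCm38.p6, 250 bases before to 50 bases after the start) were matched at the listed start for 8440 of the 13679 genes (61.7%). The PU.1 motif was searched as GAGGAAGT on both strands. It was found in 8.20% of promoters of genes more than 4-fold higher (67 of 817), in 6.41% of those of enriched genes (92 of 1435), in 2.41% of those of depleted genes and in 3.28% of all 8440. A motif of HNF1, a hepatocyte factor, searched as GTTAATNAT, was found in 2.33% of promoters of depleted genes (29 of 1244) and in 0.545% of all. The MAF motif TGCTGAC was found in 3.43% of promoters of genes more than 4-fold higher and in 3.92% of all, and the CEBP motif TTGCNNAA in 10.6% and 8.68%, with 12.1% for depleted genes. None of these motifs was found in the promoters of Clec4f, Vsig4 and Cd5l, which says only that these letters are not in those windows. Of the other markers looked up with them, Timd4 held a MAF match and Cd68 a CEBP match. A match is a description of the sequence and not a measured binding site.

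The matches are printed for the 6 genes of highest level in purified nuclei among those more than 4-fold higher with a PU.1 match before the start, so that the site and its surroundings can be read. Genes without a described symbol, and all genes on the chromosome of Csf1r, were left out of this choice. Capitals mark the match, on either strand, and each sequence is given 5′ to 3′ on the strand of its gene and ends before the start. Ano6, a lipid scramblase (chr15:95790724-95790811, plus strand), differed by 3.29 and was at 832 CPM. Ctsc (chr7:88277894-88277981, plus strand) differed by 2.78. Inpp5d, the lipid phosphatase SHIP (chr1:87620252-87620311, plus strand), differed by 3.44 and was at 530 CPM. Arhgap25 (chr6:87533260-87533345, minus strand) differed by 3.81 and was at 383 CPM. Vav1, a signalling protein of blood cells (chr17:57279049-57279099, plus strand), differed by 3.94 and was at 346 CPM. Ptgs1, a cyclooxygenase (chr2:36230362-36230425, plus strand), differed by 3.75 and was at 340 CPM. In Inpp5d, Vav1 and Ptgs1 the match lies 11 to 24 bases before the start.
Ano6: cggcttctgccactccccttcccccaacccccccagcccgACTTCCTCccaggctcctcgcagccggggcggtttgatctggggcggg
Ctsc: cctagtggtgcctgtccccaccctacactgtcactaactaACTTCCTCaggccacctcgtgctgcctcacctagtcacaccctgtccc
Inpp5d: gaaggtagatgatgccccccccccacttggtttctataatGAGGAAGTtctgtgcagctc
Arhgap25: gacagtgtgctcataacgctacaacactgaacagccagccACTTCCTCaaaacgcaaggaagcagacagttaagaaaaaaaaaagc
Vav1: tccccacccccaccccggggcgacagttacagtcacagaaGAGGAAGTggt
Ptgs1: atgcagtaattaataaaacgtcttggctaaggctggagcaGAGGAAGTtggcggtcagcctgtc

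The HNF1 motif is shown in the same way, with the same genes left out, for the 3 depleted genes of highest level in the pools with a match before the start. All of them are genes of hepatocytes. Slco1b2, a bile acid and drug transporter (chr6:141629412-141629500, plus strand), was at 640 CPM in purified nuclei and 1547 in the pools. Pzp, a plasma protease inhibitor (chr6:128526874-128526962, minus strand), was at 527 and 1283 CPM. Gc, the vitamin D binding protein (chr5:89457902-89457990, minus strand), was at 463 and 1065 CPM.
Slco1b2: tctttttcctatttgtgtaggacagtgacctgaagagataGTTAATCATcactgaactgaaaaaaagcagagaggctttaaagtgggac
Pzp: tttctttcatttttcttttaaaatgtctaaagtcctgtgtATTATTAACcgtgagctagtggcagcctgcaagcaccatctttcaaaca
Gc: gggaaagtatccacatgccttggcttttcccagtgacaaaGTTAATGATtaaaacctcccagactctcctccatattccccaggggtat

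The difference between purified nuclei and whole liver was then taken in each of the 8 conditions, 4 libraries against 1 pool, with the spread of the lone pool assumed to equal that of the purified libraries. In fed mice 16% of genes were enriched at 3 h, 16.4% at 8 h, 15.6% at 16 h and 17.4% at 24 h. In fasted mice these shares were 16%, 15.3%, 13.8% and 15.4%. Over all 13679 genes, 3101 were called enriched in at least 1 condition and 1432 in all 8. All 1432 were among the 2337 enriched genes, of which 1677 were more than 2-fold higher in all 8. The 2337 were chosen by the common difference over the same libraries, so their agreement across conditions was largely set by that choice. Hmox1 ranged over the conditions from 2.80 to 3.97, Spic from 3.79 to 4.88 and Bank1 from 3.08 to 4.28, while Axl ranged only from 4.04 to 4.30 and Spi1 from 4.00 to 4.46.

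The difference between macrophage nuclei and whole liver depended on feeding for few genes. By a test of the difference itself over the 40 libraries, 24 genes had a larger difference in fasted mice (0.175%) and 18 a smaller one (0.132%), and 6 and 11 of these were enriched genes. At an unadjusted p under 0.05 there were 852 genes, where chance alone gives a share of about 0.05 of the 13679 tested. Pltp, which encodes the phospholipid transfer protein, was at 132 CPM in fed and 134 CPM in fasted purified nuclei. Its pools had means of 31.1 and 10.6 CPM, so its difference was larger in fasted mice by 1.37 ± 0.22 (edgeR adjusted p = 0.00124). At 3, 8, 16 and 24 h these pools were at 15.5, 45.4, 49.7 and 13.8 CPM in fed mice. In fasted mice they were at 8.72, 9.62, 12.6 and 11.3 CPM, so the gap was smallest at 24 h. Fmn1, an actin nucleator of the formin family, was at 389 and 360 CPM in purified nuclei and at 243 and 78.4 CPM in the pools (1.51 ± 0.19, edgeR adjusted p = 4.57e-05). Gas2l3 (1.05 ± 0.15), Birc3, an inhibitor of apoptosis (0.83 ± 0.14), and Dpy19l3 (0.75 ± 0.16) had larger differences as well.

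Slc41a3, a magnesium transporter, was at 12.7 and 15.9 CPM in fed and fasted purified nuclei and at 3.37 and 12.5 CPM in the pools (-1.50 ± 0.19, edgeR adjusted p = 4.57e-05). Txnip, a brake on glucose uptake, was at 60.4 and 71.7 CPM in purified nuclei and at 15.8 and 57.8 CPM in the pools (-1.54 ± 0.31, edgeR adjusted p = 0.0224). Gpr160 was at 23.5 and 16.1 CPM in purified nuclei and at 1.59 and 2.72 CPM in the pools (-1.34 ± 0.28). Zfp36l2 (-1.02 ± 0.20) and Nek2 (-1.89 ± 0.43) also had smaller differences. The median ratio of the hepatocyte markers to the pool was 0.381 in fed and 0.460 in fasted mice. The purified libraries spanned 0.254 to 0.503 in fed and 0.362 to 0.609 in fasted mice, so the ranges overlapped. This contrast was not tested, and neither was its part in the fasting differences. With 4 pools on each side, single pools carried weight. Without the fed pool of 3, 8, 16 or 24 h, the larger differences numbered 5, 5, 15 and 7, and without the fasted pool of these times 5, 4, 10 and 7. The smaller differences numbered 2, 2, 7 and 5 without the fed pools and 2, 2, 12 and 5 without the fasted pools. Fmn1, Gas2l3 and Slc41a3 kept their call whichever pool was left out. Pltp lost it without either pool of 8 h (edgeR adjusted p = 0.0848 without the fed and 0.111 without the fasted one) and Birc3 without either pool of 3 h, while Txnip, Gpr160 and Zfp36l2 lost it without 5 or 6 of the 8 pools and Dpy19l3 and Nek2 whichever pool was left out.

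The difference varied with time for 8 genes (0.0585%), of which 2 were enriched. At an unadjusted p under 0.05 there were 464 genes, a smaller share than the 0.05 that chance alone gives. Pfkfb3, a regulator of glycolysis, had differences of 1.44, 1.93, 2.11 and 0.83 at 3, 8, 16 and 24 h (F = 14.1, edgeR adjusted p = 0.0153). Its pools were at 33.8, 26.2, 26.7 and 84.1 CPM in fed mice and at 43.2, 29.3, 23.4 and 60.3 CPM in fasted mice, and were highest at 24 h in both. Rasgef1b, an exchange factor gene induced by Toll-like receptors, had differences of 2.87, 2.75, 3.40 and 1.74 (F = 13.9, edgeR adjusted p = 0.0153), and its pools were likewise highest at 24 h, at 216 CPM in fed and 393 CPM in fasted mice. Without the pool of fed mice at 24 h, or that of fasted mice at 16 or 24 h, edgeR called no gene, and without each of the other 5 pools 5 to 9 genes were.

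**Figure D4:**
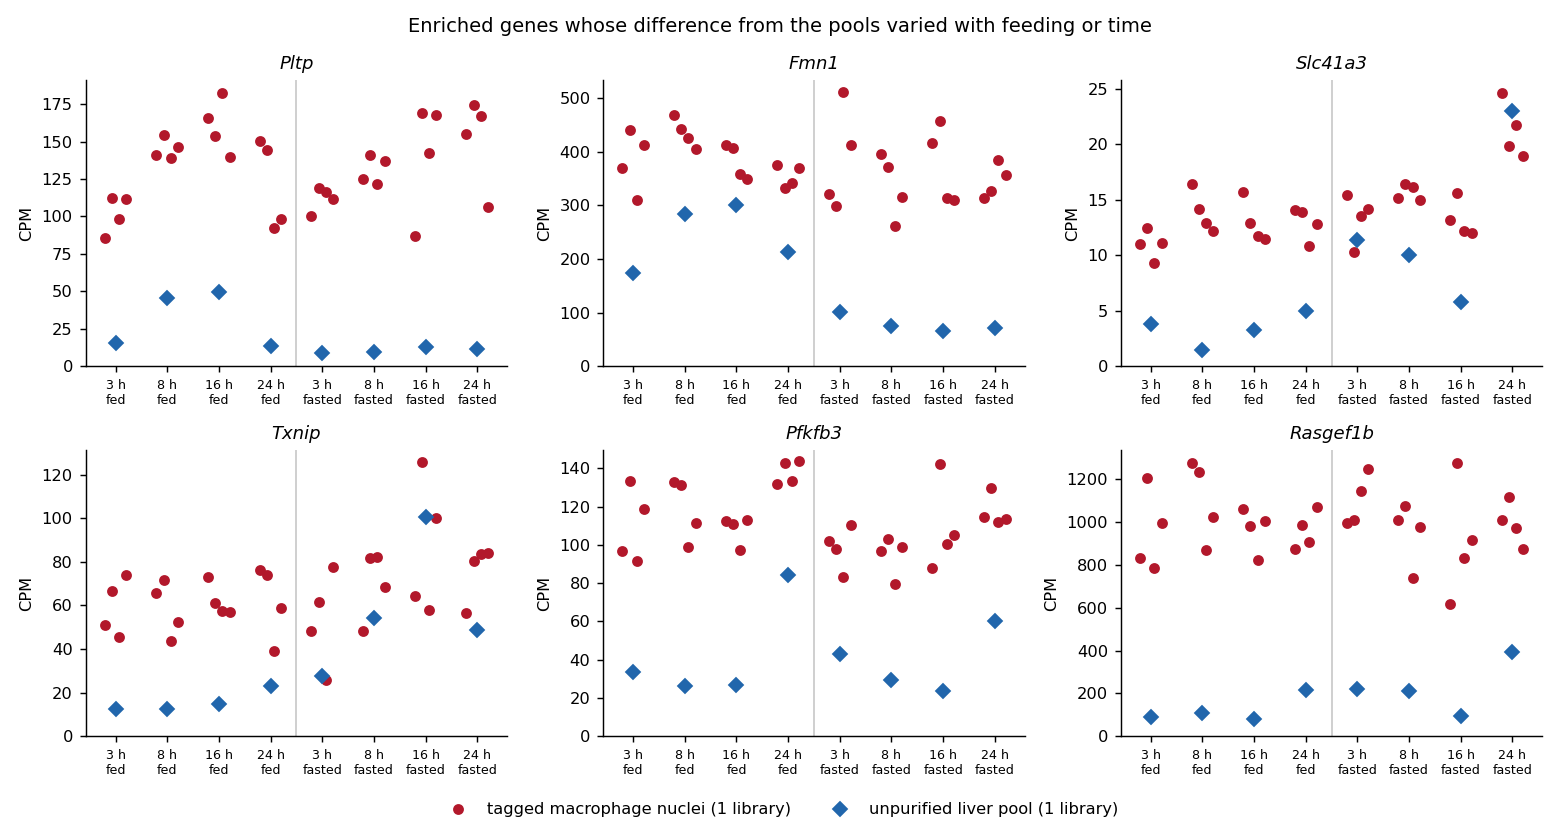
Levels in CPM of Pltp, Fmn1, Slc41a3, Txnip, Pfkfb3 and Rasgef1b by time and feeding, with red points for purified macrophage libraries and blue diamonds for the pools. The pools of Pltp and Fmn1 have lower means in fasted mice (10.6 and 78.4 CPM) than in fed mice (31.1 and 243 CPM). The purified libraries are nearly level. For Pltp the fed and fasted pools are close at 24 h (13.8 and 11.3 CPM).

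The same tissue was also purified for hepatocyte nuclei in other mice, which gives a second set of differences from whole liver. In that set 3779 of 13065 genes were higher (28.9%) and 2684 lower (20.5%). That balance depends on scaling: on library totals alone 457 were higher and 3125 lower, and the median over all genes moved from 0.12 to -0.01. Of the 2337 genes enriched in macrophage nuclei, 1848 were tested in hepatocyte purification, where 1300 were lower, 15 were higher and 533 passed in neither direction. Their median was -0.92. Of those more than 4-fold higher in macrophage nuclei, 868 of 948 were lower in hepatocyte nuclei, with a median of -2.10, and of those 2-fold to 4-fold higher, 432 of 900 were, with a median of -0.25. Clec4f, Vsig4 and Csf1r differed by -2.57, -2.58 and -2.33 there. Slc40a1 differed by -0.37 ± 0.12 and Nr1h3 by 0.11 ± 0.06, so these genes, though strongly enriched in macrophage nuclei, were close to the level of whole liver in hepatocyte nuclei. Of the 2096 depleted genes, 2072 were tested, and 507 were lower and 596 higher in hepatocyte nuclei. A test of the difference between the purifications over all 80 libraries called 5020 of 13885 genes higher in the macrophage one (36.2%), among them 2308 of the 2323 enriched genes it covered. The enriched genes were chosen by the same macrophage difference that enters this test, so their count was largely set by that choice.

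**Figure D5:**
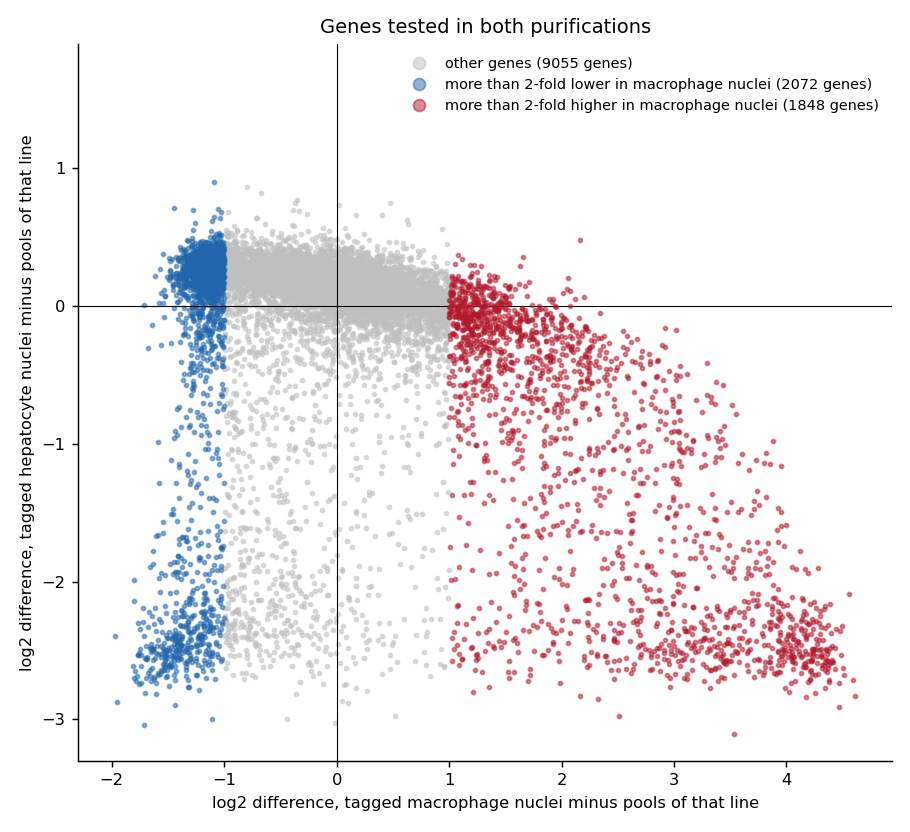
Log2 difference from whole liver in purified macrophage nuclei (horizontal) and in purified hepatocyte nuclei of other mice (vertical), 1 point per gene, for 12975 genes tested in both. Red marks 1848 genes enriched in macrophage nuclei, blue 2072 depleted genes and grey the other 9055. Genes far to the right lie mostly below 0 on the vertical axis.

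The authors' deposited table of a macrophage subset lists 3762 genes. The rule by which they chose it was not found in the labels or the files. The subset comes from the same series, so its overlap with the calls made here is no independent check. Of these genes 3694 were tested, and all of them were higher in purified macrophage nuclei than in whole liver, with a lowest difference of 0.13 and a median of 1.35. The subset held 2269 of the 2337 enriched genes (97.1% of the enriched genes and 61.4% of the tested subset). The authors' hepatocyte subset shared 1 gene with it and 3973 of its 4596 tested genes were lower in macrophage nuclei.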

How the data were processed

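Total nuclear RNA was made into stranded libraries with no polyadenylation step and read from both ends for 50 bases, per the labels' protocols. The authors deposited raw read counts per gene for 80 libraries, and mm10, STAR 2.4.2a and DESeq2 1.24.0 are the build and tools in the submitters' processing notes. The counting tool and the use of strand were not found in the labels or the files. Every count column matched 1 sample title, and 0 columns were unmatched.

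For the tests, edgeR 4.0.16 (R 4.3.3) was run with filterByExpr (count minimum 10, total minimum 15), TMM scaling, and a robust quasi-likelihood F-test with condition and fraction as terms over 40 libraries, Benjamini-Hochberg adjusted at 0.05. A single condition, and the difference by feeding or time, came from fits with fraction by group. Library totals of 14968505 to 44694933 counts set the precision, which is lowest for genes of few counts. On simulated counts of 13607 genes the test found 86% of changes of 1.5-fold, 97.67% of 2-fold and 100% of 4-fold, and 3.09% of its calls were false. For the difference by feeding, 71.43% of 2-fold and 95.37% of 4-fold changes were found over 13620 genes. Only a small random set of genes was changed in these simulations, up or down at random, and each other gene kept 1 mean level throughout. In the data 5095 genes were higher and 5477 lower, so these rates need not hold there.

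The members, gene lists and tests were chosen with earlier results of these data known. The genes named are the 3 markers, the 20 largest differences (at least 1 CPM, no overlap, a described symbol), the 12 highest levels per kilobase above 4-fold, the 10 lowest (at least 5 CPM in the pools), and from each list up to 5 called members of largest difference with any called member against its direction. Further rules took 5 genes each way for feeding, up to 5 for time, 8 for the hepatocyte purification and 6 without a described symbol. The results of some of these genes are not reported here. Alb, Bmpr1a, Bmpr2, C3, Eng, Heyl, Id1, Notch1, Smad5, Smad9, H2-Aa, H2-Eb2 and Nlrp3 were chosen after their values were seen. Replicates are numbered in accession order and not paired by the labels. Alternatives were RLE scaling, library totals, other filters, DESeq2 1.42.0, voom of limma 3.58.1, other covariates and libraries left out.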

Additional observations from a re-analysis of the deposited data

Results flagged for a closer look

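For 12 of the enriched genes, those chosen by the rule for named genes, the difference between purified macrophage nuclei and whole liver itself differed between feeding states or times by a test of that difference (edgeR, adjusted p under 0.05). It was larger in fasted mice, on the log2 scale, for Fmn1 by 1.51 ± 0.19 (adjusted p = 4.57e-05), Pltp by 1.37 ± 0.22 (0.00124), Gas2l3 by 1.05 ± 0.15 (0.000465), Birc3 by 0.83 ± 0.14 (0.00156) and Dpy19l3 by 0.75 ± 0.16 (0.0302). It was smaller for Nek2 (-1.89 ± 0.43, adjusted p = 0.0458), Txnip (-1.54 ± 0.31, 0.0224), Slc41a3 (-1.50 ± 0.19, 4.57e-05), Gpr160 (-1.34 ± 0.28, 0.0293) and Zfp36l2 (-1.02 ± 0.20, 0.0196). Over the times, Pfkfb3 (F = 14.1) and Rasgef1b (F = 13.9) differed, both at an edgeR adjusted p of 0.0153.

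Among the 4 purified libraries of a condition, 1 stood far from the other 3 in 9 of 136 groups checked, where chance gives about 1 in 20. In fasted mice, Dpy19l3 was at 18.3 CPM in replicate 4 of 3 h (others 15.5 to 15.9), Zfp36l2 at 28.99 CPM in replicate 4 of 8 h (others 36.1 to 37.4), and Gpr160 at 8.86 CPM in replicate 1 of 16 h (others 16.9 to 17.7). At 24 h of fasting, Gas2l3 was at 39.8 CPM in replicate 2 (others 32.01 to 33.2), Pfkfb3 at 129.96 CPM in replicate 2 (others 112 to 115) and Txnip at 56.7 CPM in replicate 1 (others 80.6 to 84.1). In fed mice, Gas2l3 was at 42.3 CPM in replicate 2 of 3 h (others 38.1 to 38.7), Nek2 at 0.743 CPM in replicate 1 of 8 h (others 1.46 to 1.61) and Pfkfb3 at 97.1 CPM in replicate 3 of 16 h (others 111 to 113).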

How the results depend on the processing

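The count of genes more than 2-fold higher in macrophage nuclei lay between 1938 and 2660 under all alternatives against 2337. No difference of a named gene changed its sign, but the balance of higher and lower genes did turn over under some alternatives. The lower side was less stable: a test against a 2-fold difference (glmTreat) called 510 genes lower in place of 2096, and 1998 higher, since it asks more of each gene by construction. On library totals alone, 5551 genes were higher and 4952 lower against 5095 and 5477, so 52.9% of the called genes were higher against 48.2%. With fed libraries only, 5183 genes were higher and 5088 lower. With 1 library left out, 2271 to 2426 genes were more than 2-fold higher, 1882 to 2292 more than 2-fold lower, 4782 to 5362 higher and 5236 to 5858 lower. Without 1 pool, larger differences in fasted mice numbered 4 to 15 against 24, smaller ones 2 to 12 against 18, and differences by time 0 to 9 against 8. RLE scaling gave 15 larger differences, and DESeq2 gave 48 larger, 47 smaller and 26 by time; the cause was not tested. In hepatocyte purification, library totals alone called 457 genes higher and 3125 lower against 3779 and 2684, and higher genes were 12.8% of those called against 58.5%. Of 354 named genes, 314 kept their call under every alternative that gave a value. Stab2, Scarf1, Tirap, Ticam1, Pros1, Hvcn1, Gas6, Id2, Id3, Zfp36, Il1r1, Il27ra, Scara5, Colec12, Srebf1, Fabp5, Esrra, Jag2, Cxcr5, Ms4a1, Mmp9 and Cd79b were among those that lost it under some, mostly in fasted libraries only or with 1 purified library per condition, and stayed on the same side of 0. The hepatocyte ratio, from summed markers, was 0.446 on library totals and 0.416 on adjusted totals. No paired analysis was possible because the labels pair no libraries. The titles call the pools inputs, but whether their mice are those of the purified libraries is not clear from the labels. The tests took purified libraries and pools as independent. Fits with the purified library of 1 number per condition beside its pool, as 8 pairs, called 1938 to 2283 genes more than 2-fold higher.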

Other observations

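Some genes enriched in macrophage nuclei were not lower in purified hepatocyte nuclei than in their pools. The 8 with the highest hepatocyte difference included Apol7c, an apolipoprotein L gene (0.48 ± 0.38 there, which did not pass, against 2.17 ± 0.22 in macrophage nuclei, edgeR). Others act in division or replication: Tonsl, which repairs stalled replication forks (0.37 ± 0.18 against 1.08 ± 0.20), Kif20a (0.36 ± 0.29 against 1.66 ± 0.25), Nek2 (0.34 ± 0.28 against 1.12 ± 0.25) and Tacc3 (0.29 ± 0.13 against 1.22 ± 0.16). Psme2, a proteasome activator chain (0.30 ± 0.11 against 1.05 ± 0.15), and Daxx (0.29 ± 0.10 against 1.28 ± 0.16) were called higher in both. Kif20a overlaps Brd8 and Cdc23 in the genome. BC049715 had 0.30 ± 0.18 and 1.19 ± 0.18.

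Among genes without a described symbol, B430306N03Rik in the Trem cluster was at 71.1 ± 19.7 CPM in purified nuclei and 3.21 ± 0.564 in the pools (4.43 ± 0.14). Gm5150 was at 423 ± 110 against 21.6 ± 4.55 CPM (4.30 ± 0.17), Gm1966 at 513 ± 192 against 31.3 ± 7.28 CPM (3.99 ± 0.17) and AB124611 at 100.4 ± 19.1 against 5.54 ± 1.02 CPM (4.17 ± 0.15). For these 4 no purified library was as low as the highest pool. 1700013H16Rik (4.38 ± 0.32) and A530064D06Rik (4.18 ± 0.30) were at means of 1.47 and 1.72 CPM. Such genes made up 4.49% of enriched genes and 3.55% of all genes tested.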
